A study of Caenorhabditis elegans with 12 samples.

Results

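The genes described here lie on the arms of chromosome II of the nematode Caenorhabditis elegans, the outer stretches on both sides of a gene-rich middle. A gene was taken when the midpoint of its deposited coordinates lay below 5.1 Mb (left arm) or above 10.2 Mb (right arm). Of 3256 such genes in the deposited tables, 2992 had at least 1 read and 1554 had a normalised read count of at least 10 in at least 2 of 12 libraries. These 1554 genes, 784 on the left arm and 770 on the right, are among 14640 genes of 46904 that passed this filter genome-wide. The middle of the same chromosome, with 990 passing genes of 1972, served as the comparison.

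Messenger RNA was sequenced from late-stage embryos of 6 genotypes, with 2 libraries for each. N2 is the wild-type laboratory strain, and the mutant strains were lin-61, hpl-2, hpl-2 I158A, the double mutant lin-61 hpl-2 and the triple mutant met-2 set-25 set-32. HPL-2 belongs to the HP1 (heterochromatin protein 1) family, I158A names a point mutation in it, LIN-61, with its MBT repeats, is another reader of methylated histone H3 lysine 9 (H3K9), and MET-2, SET-25 and SET-32 belong to the group of SET-domain proteins linked to H3K9 methylation. The labels name no alleles for the other mutations, and all mutants were compared with the same 2 N2 libraries, so the 5 comparisons are not independent of each other. Nothing in the labels says that the replicates came from separate cultures, and the p-values then measure only the spread between these libraries, which may be technical.

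In worm autosomes the arms are known to be richer than the middle in repeats, in H3K9 methylation and in fast-evolving gene families, and they lie near the nuclear envelope. The middles hold more of the genes that are used in every cell. Proteins of the HP1 family bind methylated H3K9 and are best known for keeping genes and repeats silent.

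Between 1593546 and 2533102 reads per library were assigned to genes, and 10243076 in triple mutant replicate 2. That library also stood apart in its share of non-coding RNA reads, 3.20% against 14.5% to 17.5%, so counts are given with all 12 libraries and without it. Of the mutated genes, hpl-2 stood at 304 and 242 normalised reads in N2 and at 30.9 to 49.8 in the 4 libraries of hpl-2 and the double mutant. Its level in the I158A strain, 283 and 244, checks nothing, since that mutation changes 1 residue. lin-61 was at 5.45 to 13.6 in the 4 lin-61 mutant libraries and at 91.9 and 41.4 in N2. In the triple mutant, met-2, set-25 and set-32 each lay below both N2 libraries. All 11 late-embryo markers had reads in every library, summing to 27150 to 47490 normalised reads. By contrast, 6 vitellogenin genes of adults summed to 14.5 to 40.9 and 6 sperm markers to 0 to 6.93. The 6 early-embryo markers found, of 7 listed, summed to 91.5 to 154. They were at 139 and 138 in the I158A strain and at 118 and 124 in N2.

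The passing arm genes comprised 1282 protein-coding genes, 160 non-coding RNA genes, 71 pseudogenes and 9 piRNA genes, besides smaller classes. The left arm was the quieter of both arms: 51.5% of its annotated protein-coding genes passed the filter, against 67.9% on the right arm and 64.1% in the middle. Per kilobase of exon, the median level of passing genes in the N2 libraries was 28.1 and 27.1 normalised reads on the left arm, 46.6 and 47.4 on the right arm, and 40.1 and 36.8 in the middle. The arms took 8.14% to 8.97% of all reads in a library. The arms held 106 of the 322 F-box genes of the genome, of which 76 passed, and the middle 1, which did not. F-box proteins bring substrates to ubiquitin ligases of the SCF type. The arms also held 74 of 90 MATH and BTB genes, which encode adaptors of another ubiquitin ligase (32 passed), 45 of 240 C-type lectin genes (16 passed) and 130 of 1316 chemoreceptor genes, of which 9 passed in these embryos.

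Of the 5 mutants, hpl-2 had the lowest arm genes relative to the middle of the chromosome. The median log2 fold change of hpl-2 over N2 was -0.12 on the arms (1554 genes), 0.13 in the middle and 0.03 over all 14640 genes. On the arms 56.6% of the genes had a value below 0, against 42.4% in the middle. Set per library, as the median deviation of arm genes from their mean over all libraries minus the same for the middle, the difference was -0.19 and -0.21 in the hpl-2 libraries and 0.08 and 0.03 in N2. The hpl-2 libraries lay below all other libraries, the nearest being triple mutant replicate 2 at -0.17, while its partner stood at 0.01. Both arms had a part in it: the left arm stood at -0.21 in both hpl-2 libraries and the right arm at -0.17 and -0.20. On the right arm alone triple mutant replicate 2 was as low, at -0.20. In hpl-2 I158A the same measure was 0.12 in both libraries, above all other libraries, and there the right arm (0.17 and 0.16) stood above the left (0.04 and 0.06). The lin-61 libraries stood at 0.02 and -0.01, and the double mutant libraries at 0.08 and 0.04. These are shifts of the median gene by less than 0.3 log2 units and carry no test, since genes are not replicates.

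**Figure D1:**
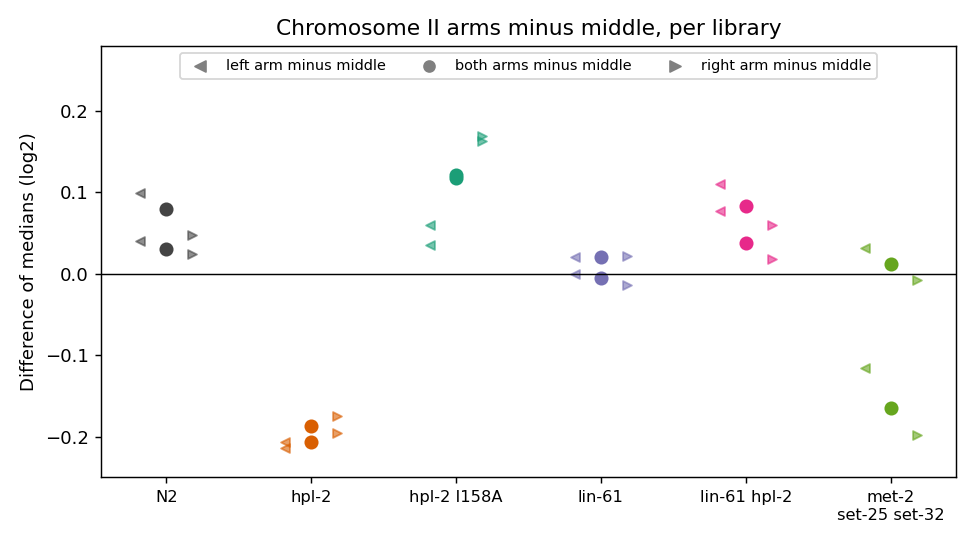
Median deviation of chromosome II arm genes minus that of the genes of the middle (log2, y axis) in each of the 12 libraries by genotype (x axis); circles are both arms together, left- and right-pointing triangles the single arms. Both hpl-2 circles lie near -0.2 (-0.19 and -0.21) and both hpl-2 I158A circles at 0.12, while the 2 triple mutant libraries differ from each other (0.01 and -0.17).

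Along the chromosome, the hpl-2 shift changed sign near the limits of the arms. In steps of 1 Mb, the median log2 fold change of hpl-2 over N2 was lowest from 1 to 2 Mb, at -0.39 over 150 genes. It stood at -0.20 and -0.23 in the next steps of the left arm and at -0.02 from 4 to 5 Mb. It was then positive in all 5 steps from 5 to 10 Mb, with its highest value of 0.20 between 6 and 7 Mb. On the right arm it was -0.01 to -0.04 up to 13 Mb and -0.17 and -0.19 in the steps from 13 to 15 Mb. Single genes on either side of the chosen limits varied: at the left limit C04G6.14 (midpoint 5091226) had a log2 fold change of -0.51 in hpl-2 and idpb-3 (5101106) one of 1.35, and at the right limit R05H5.4 (10199038) one of -0.36 and arv-1 (10200314) one of 0.41.

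**Figure D2:**
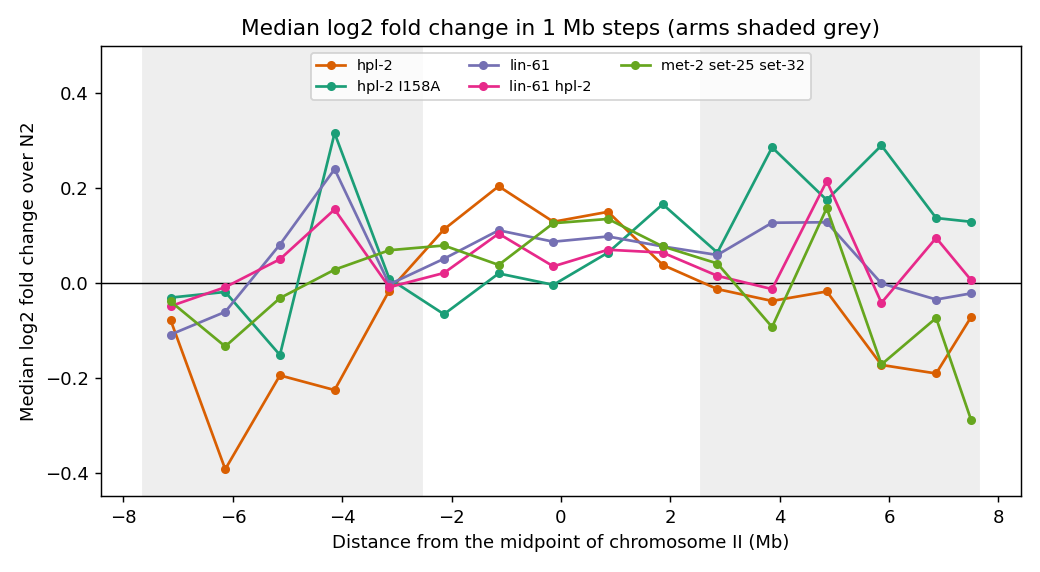
Median log2 fold change over N2 of the passing genes in 1 Mb steps (y axis) against the distance from the midpoint of chromosome II in Mb (x axis), 1 line per mutant, arms shaded. The hpl-2 line is below 0 throughout the arms, lowest at -0.39, and above 0 through the middle, up to 0.20; the other mutants show no such trough on the left arm.

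Single genes passed the test less often. A gene was called at a limma adjusted p under 0.05, adjusted over all 14640 genes. In hpl-2, 7 arm genes rose and 11 fell (0.45% and 0.708% of the arm genes, against 0.28% and 0.328% of all genes), and in the middle 2 rose and 0 fell. For that 0, 42 middle genes were lower at an unadjusted limma p under 0.05, and 8 were lower in the authors' deposited table. In hpl-2 I158A, 20 arm genes rose and 31 fell (1.29% and 1.99%, against 0.908% and 3.09% of all genes), and in the middle 7 rose and 40 fell. In lin-61, 2 arm genes rose and 0 fell (against 0.0751% and 0.0205% of all genes; 75 were lower at an unadjusted p under 0.05). In the double mutant, 6 rose and 0 fell (against 0.246% and 0.0273% of all genes; 61 lower unadjusted), and in the triple mutant, 1 rose and 0 fell (against 0.123% and 0.205% of all genes; 146 lower unadjusted). The authors' deposited table gave, among arm genes with an adjusted p, 15 higher and 57 lower of 1187 for hpl-2. For hpl-2 I158A it gave 35 and 61 of 1475, and for lin-61 12 and 3 of 1031. For the double mutant it gave 19 and 3 of 1759, and for the triple mutant 16 and 27 of 1697. Over all genes it gave 166 and 319 of 11312 for hpl-2 and 292 and 818 of 13874 for hpl-2 I158A. The others had 79 and 79 of 10031 (lin-61), 84 and 17 of 16436 (double mutant) and 98 and 228 of 15795 (triple mutant). In all, 69 of 1554 arm genes were called in at least 1 mutant, 27 higher and 42 lower, with none in both directions. Of these 69, 62 were protein coding. Over all 14640 genes 719 were called, 193 higher and 527 lower, with 1 in both directions. In the middle it was 49 of 990 genes.

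The counts depended on single libraries. Without triple mutant replicate 2, the arm counts became 74 higher and 181 lower in hpl-2 (5.68% and 8.7% of all genes), 145 and 156 in the I158A strain (9.17% and 12.9%), 47 and 51 in lin-61 (3.1% and 3.09%), 64 and 37 in the double mutant (2.86% and 2.15%) and 35 and 25 in the triple mutant (1.75% and 1.71%). The middle then had 84 higher and 63 lower in hpl-2 and 239 genes called in the I158A strain, 97 of them higher. Outside the triple mutant, every arm gene called with 12 libraries was also called with 11. There the refit changes only the shared spread and not the log2 fold changes, so the direction could not differ. Leaving out any single library of hpl-2 or N2 brought the hpl-2 count of 18 to between 2 and 4. For hpl-2 I158A the 51 calls fell to 30 without N2 replicate 2 and to between 1 and 3 without N2 replicate 1 or either hpl-2 I158A library. In all these refits the spread of the lone library is taken to be that of the other groups.

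**Figure D3:**
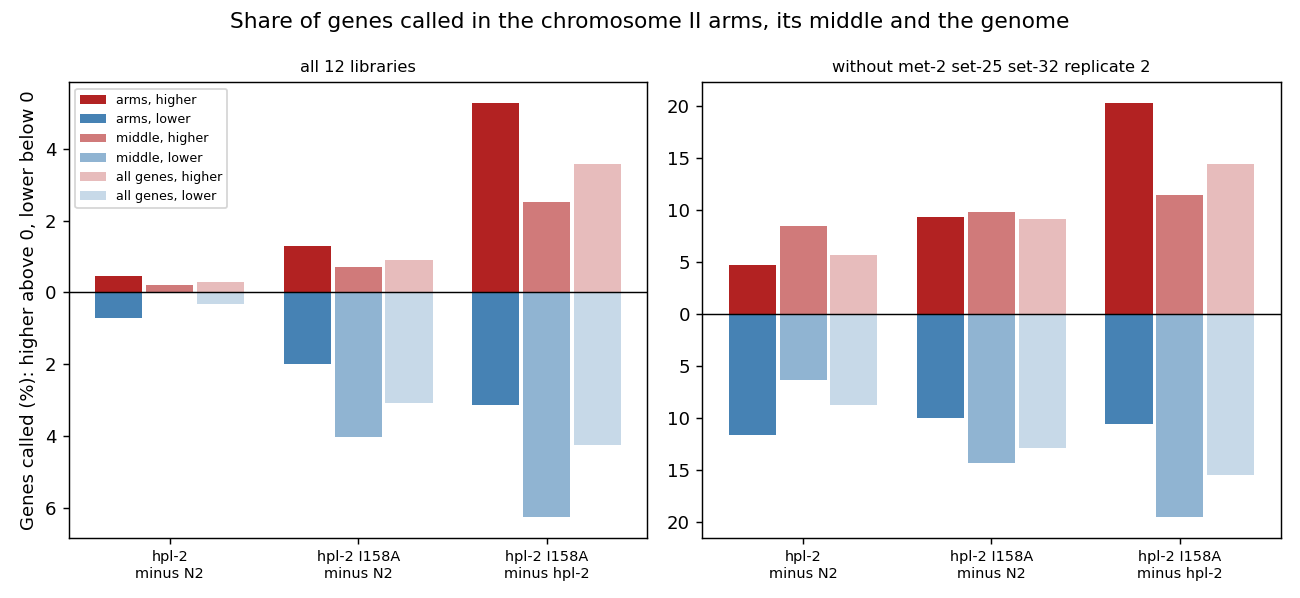
Percent of genes called higher (red, above 0) and lower (blue, below 0) on the chromosome II arms, in its middle and among all genes, for hpl-2 over N2, hpl-2 I158A over N2 and hpl-2 I158A over hpl-2, with all 12 libraries (left) and without triple mutant replicate 2 (right; the y scales differ). In hpl-2 the arms have the larger share of lower calls (11 of 1554 against 0 of 990 genes with 12 libraries, 181 against 63 with 11).

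The gene with the broadest rise was F15D4.5 (WBGene00008862; II, 13245348 to 13247774 on WBcel235, right arm), the only arm gene called in all 5 mutants. It had 57.6 and 70.7 normalised reads in N2, 457 and 419 in the hpl-2 strain, 146 and 131 in the I158A strain, 486 and 543 in lin-61, 619 and 527 in the double mutant, and 581 and 563 in the triple mutant. Every mutant library lay above both N2 libraries, and the I158A libraries lay below those of the other mutants. The log2 fold changes were 2.76 in hpl-2 (SE 0.19, limma adjusted p = 9.52e-05), 1.11 in the I158A strain (adjusted p = 0.0142), 2.99 in lin-61 (adjusted p = 7.48e-05), 3.14 in the double mutant (adjusted p = 4.46e-05) and 3.14 in the triple mutant (adjusted p = 2.96e-05). The double mutant libraries overlapped those of lin-61 and lay above those of hpl-2.

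gcy-19 (II, 3250985 to 3259354, left arm) encodes a receptor-type guanylate cyclase, a class of membrane proteins that make cyclic GMP, mostly in sensory neurons. Its levels were 12.5 and 14.6 normalised reads in N2, 155 and 161 in the hpl-2 strain, 86.8 and 87.2 in lin-61, 266 and 268 in the double mutant, 19.3 and 19.4 in the I158A strain, and 49.9 and 23.6 in the triple mutant. No mutant library overlapped the N2 libraries, and replicates lay close together except in the triple mutant. gcy-19 rose in hpl-2 (log2 fold change 3.46, SE 0.34, limma adjusted p = 0.00163), in lin-61 (2.60, adjusted p = 0.0164) and in the double mutant (4.21, adjusted p = 0.000344). In hpl-2 I158A (0.49) and the triple mutant (1.29, adjusted p = 0.165) it did not pass. The other 3 passing guanylate cyclase genes of the arms were called in none of the mutants.

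A stretch of 23.1 kb on the left arm (II, 2163341 to 2186434) held 9 passing genes, of which 5 were called in some mutant. It was drawn around neighbouring called genes, with called genes at its ends, so its high share of calls follows from the choice. Of all 14640 genes, 719 were called in at least 1 mutant. At one end lie gba-1 and gba-2, 2 adjacent genes of the glucocerebrosidase family, whose enzymes split glucosylceramide. gba-1 was at 4.67 and 11 normalised reads in N2, 63.8 and 43.4 in the hpl-2 strain, 66.4 and 37.3 in lin-61, and 276 and 325 in the double mutant. It was at 2.89 and 7.13 in the I158A strain, which overlaps N2, and at 18 and 17.8 in the triple mutant. It rose in hpl-2 (log2 fold change 2.70, SE 0.50, limma adjusted p = 0.0479) and in the double mutant (5.19, SE 0.50, adjusted p = 0.00146); in lin-61 the difference of 2.62 did not pass (adjusted p = 0.122). gba-2 was at 4.67 and 4.87 in N2, 21.9 and 16.8 in the hpl-2 strain, 14.3 and 13.6 in lin-61, and 267 and 153 in the double mutant. Only the double mutant passed the test for gba-2 (log2 fold change 5.14, SE 0.64, limma adjusted p = 0.00761), where its libraries lay far above the single mutants.

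Further along the same stretch, fbxb-38, an F-box gene, was at 42.1 and 20.7 normalised reads in N2, 248 and 200 in the double mutant, and 7.71 and 8.15 in the I158A strain. It rose in the double mutant (log2 fold change 2.87, SE 0.49, limma adjusted p = 0.0461) and lay below N2 in the I158A strain without passing (-1.78, adjusted p = 0.0719). Its neighbours C33C12.4 and C33C12.11 fell in hpl-2 I158A, by 2.37 (limma adjusted p = 0.0468) and 2.78 (adjusted p = 0.0494) on the log2 scale; C33C12.4 is named for its place in the stretch. All 9 genes had positive log2 fold changes in the double mutant (1.36 to 5.19) and negative ones in hpl-2 I158A (-2.78 to -0.25). The double mutant libraries of gba-1, gba-2 and fbxb-38 were each the highest of the 12.

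Genes of immunity-related and cuticle families gave smaller counts. clec-126, a C-type lectin gene (II, 3519494 to 3520421, left arm), had no read in either N2 library, 2.86 and 3.54 normalised reads in hpl-2, 10.2 and 5.45 in lin-61, and 33.4 and 28.3 in the double mutant. The double mutant rose at least 15-fold over a floor of 3 reads for the N2 group (limma adjusted p = 0.00627). clec-10, another lectin gene (II, 402580 to 404235), had 1 read over both N2 libraries and 27.6 and 19.5 normalised reads in hpl-2. It rose in hpl-2 (limma adjusted p = 0.0365), with a ratio of 34.2 to N2 whose 95% exact counting interval ran from 5.87 to 1377.7. In lin-61 and the double mutant it lay above N2, at 8.17 and 10.9 and at 12.4 and 6.79, without passing (adjusted p = 0.213 and 0.17). Over the 16 passing lectin genes of the arms, 1 rose and 0 fell in hpl-2 (0.28% and 0.328% of all genes). With 11 libraries 1 of these genes rose and 1 fell there (5.68% and 8.7% of all genes). Their median log2 fold change was 0.46 in hpl-2, 0.15 in the I158A strain, 0.51 in lin-61, 0.66 in the double mutant and -0.31 in the triple mutant.

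rol-1 (II, 12172571 to 12176069, right arm), a cuticle gene whose mutants roll along their long axis, spanned a wide range. Its levels were 4.67 and 8.53 normalised reads in N2, 26.7 and 36.3 in the hpl-2 strain, 32.7 and 30.9 in lin-61, 153 and 82.6 in the double mutant, and 84.5 and 14.5 in the triple mutant, with no read in either hpl-2 I158A library. It fell at least 4.44-fold in hpl-2 I158A (limma adjusted p = 0.0476). In the double mutant its log2 fold change of 3.95 missed the threshold (limma adjusted p = 0.0536), and no library of any other mutant overlapped N2. Of the 16 passing collagen and cuticle genes of the arms, rol-1 was the only one limma called over N2 with 12 libraries, and DESeq2 called 2. With 11 libraries 3 rose and 0 fell in hpl-2 (5.68% and 8.7% of all genes did). In the I158A strain 1 rose and 2 fell (9.17% and 12.9% of all genes). In lin-61 1 rose and in the double mutant 2 (3.1% and 2.86% of all genes).

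**Figure D4:**
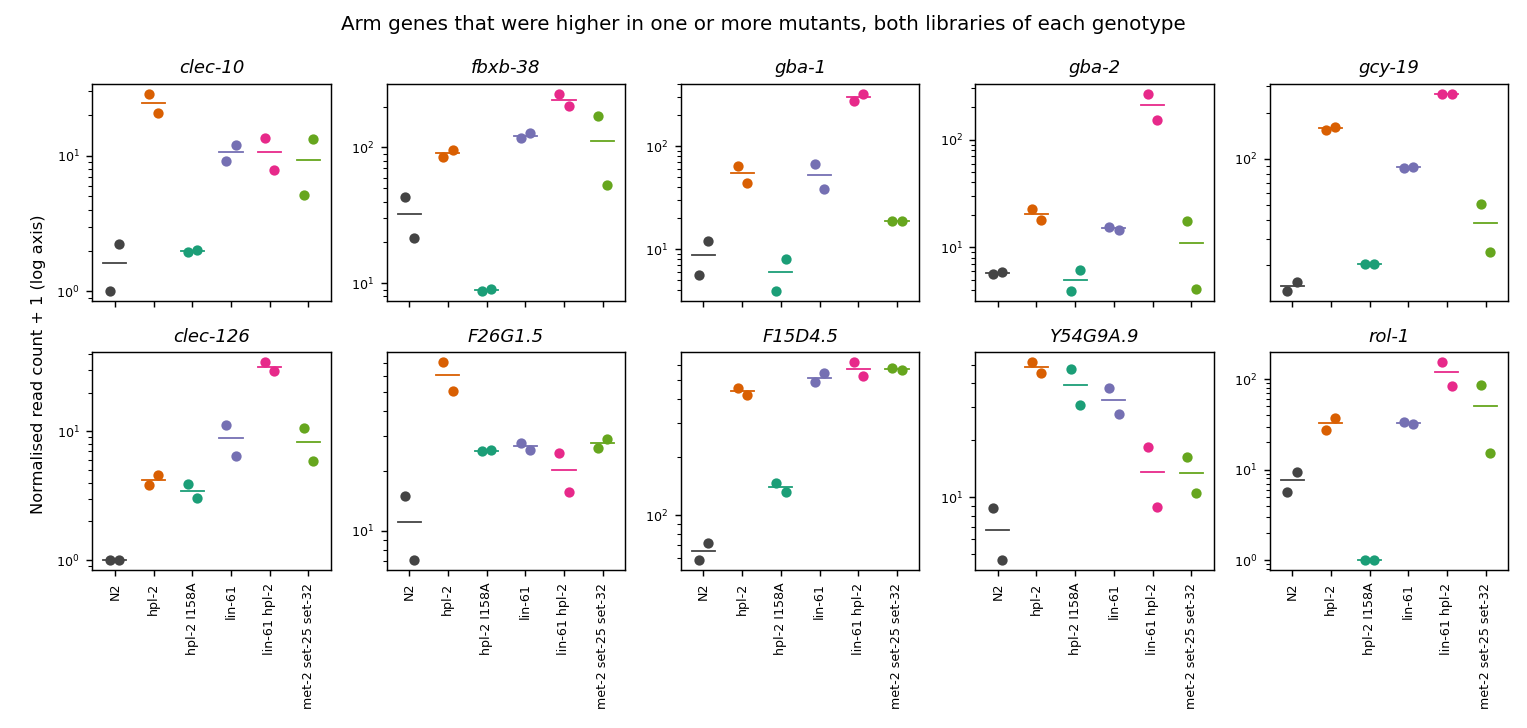
Normalised read counts plus 1 (y axis, log scale, ranges differ between panels) of 10 arm genes in both libraries of each genotype (x axis; dots are libraries, lines their means). gba-1, gba-2, fbxb-38, clec-126, gcy-19 and rol-1 have their highest means in the double mutant, clec-10, F26G1.5 and Y54G9A.9 in hpl-2, and F15D4.5 is near its top in 4 of the 5 mutants and at 146 and 131 in hpl-2 I158A.

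The other genes that rose in hpl-2 were F26G1.5, Y54G9A.9 and dao-2, the last named after its values were seen. F26G1.5 (II, 4770534 to 4771382) was at 14 and 6.09 normalised reads in N2 and 69.5 and 49.6 in the hpl-2 strain (log2 fold change 2.53, SE 0.44, limma adjusted p = 0.0402). Y54G9A.9 (II, 13729716 to 13731543) was at 7.79 and 3.66 in N2, 50.4 and 44.3 in the hpl-2 strain, and 46.2 and 29.6 in the I158A strain. It rose in both hpl-2 (2.92, SE 0.51, limma adjusted p = 0.0402) and hpl-2 I158A (2.57, SE 0.51, adjusted p = 0.0245). dao-2 likewise rose in both, by 1.26 (limma adjusted p = 0.0249) and 1.21 (adjusted p = 0.0104) on the log2 scale. Thus F15D4.5, Y54G9A.9 and dao-2 were the arm genes called in the same direction in both hpl-2 strains.

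Of the 11 arm genes that fell in hpl-2, those named by the rule are given first. mcm-2 (II, 12001510 to 12006625, right arm) encodes a subunit of the MCM helicase that unwinds DNA at replication forks. It was at 827 and 804 normalised reads in N2, 351 and 300 in the hpl-2 strain, and 907 and 865 in the I158A strain. The hpl-2 libraries were the lowest of the 12 (log2 fold change -1.33, SE 0.20, limma adjusted p = 0.0249), and those of I158A the highest. top-2, DNA topoisomerase II, had the highest mean level of any right-arm gene. It was at 5322 and 4710 in N2 and 2704 and 2683 in the hpl-2 strain (-0.89, SE 0.17, limma adjusted p = 0.0479), with 5105 and 5040 in the I158A strain. All other libraries of top-2 lay above those of hpl-2.

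snrp-200, a helicase of the U5 particle of the spliceosome, was at 2840 and 2420 normalised reads in N2 and 1244 and 1285 in the hpl-2 strain (log2 fold change -1.05, SE 0.17, limma adjusted p = 0.0308). pfs-2, a factor for the cleavage and polyadenylation of messenger RNA, went from 336 and 362 to 170 and 176 (-1.01, SE 0.17, adjusted p = 0.0374). sop-2, a repressor of Hox genes with a role like that of Polycomb proteins, went from 807 and 643 to 359 and 381 (-0.96, SE 0.18, adjusted p = 0.0479). In each of the 3 genes the hpl-2 libraries were the lowest of the 12. jmjd-2, a histone demethylase gene of the KDM4 family chosen here after its values were seen, showed the same size of change (-0.96, limma adjusted p = 0.0479). The remaining lower calls, outside the naming rule apart from the last pair, were ubxn-3, a cofactor of the CDC-48 segregase (-0.96), mcd-1, known for its part in programmed cell death (-0.86), Y53F4B.9, and a pair of LIN-8 domain genes.

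These 2 neighbouring genes, lido-8 and lido-9 (II, 2997021 to 3002411, left arm), carry the domain of LIN-8, a nuclear protein of the synMuv class. lido-8 was at 709 and 575 normalised reads in N2, 189 and 159 in the hpl-2 strain, 344 and 255 in the double mutant, and 223 and 336 in the triple mutant. It fell in hpl-2 by 1.87 on the log2 scale (SE 0.24, limma adjusted p = 0.0102). The double and triple mutant libraries also lay below N2 without passing (adjusted p = 0.114 and 0.0759). lido-9 went from 413 and 336 in N2 to 132 and 126 in hpl-2 (-1.52, SE 0.20, limma adjusted p = 0.0102). Of the 10 LIN-8 family genes on the arms, 9 passed the filter; in hpl-2, 2 fell and 0 rose (0.328% and 0.28% of all genes), and lin-8 itself, at 143 and 137 in N2 and 150 and 189 in the hpl-2 strain, did not pass. The median of the 9 was -0.43 in hpl-2, against 0.03 over all genes. It was 0.43 in the I158A strain, 0.54 in lin-61, 0.02 in the double mutant and -0.38 in the triple mutant. With 11 libraries 3 of them rose in the I158A strain (9.17% of all genes did).

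Of the 31 arm genes called lower in hpl-2 I158A, the call with the smallest p was that of che-10. It (II, 4627811 to 4638384, left arm) encodes rootletin, the main protein of the ciliary rootlet of sensory neurons. It was at 153 and 173 normalised reads in N2, 21.2 and 18.3 in the I158A strain, 113 in both hpl-2 libraries, and 302 and 321 in the triple mutant. The I158A libraries were the lowest (log2 fold change -2.98, SE 0.22, limma adjusted p = 0.000253), and this call held with any single library left out. Of the 3 cilia genes on the arms, 1 fell in hpl-2 I158A with 12 libraries and all 3 with 11, where 3.09% and 12.9% of all genes fell; their median was -1.31. The 4 passing cilia genes of the middle had a median of -0.95 there. Neuronal genes had one of -1.04 on the arms (2 genes) and -1.44 in the middle (3 genes). The 37 passing neuronal genes of the whole genome showed no such fall as a set. Their median deviation from the mean of all libraries was -0.20 and -0.01 in the I158A strain. It was -0.11 and 0.31 in N2, and -0.12 in both double mutant libraries. srt-54, a gene of a chemoreceptor family, went from 136 and 173 to 26.0 and 32.6 (-2.35, SE 0.58, limma adjusted p = 0.0482). Of the 9 passing chemoreceptor genes of the arms it was the only one called by limma over N2 with 12 libraries, and DESeq2 called 2. With 11 libraries 3 fell in the I158A strain (12.9% of all genes did) and 1 in hpl-2 (8.7%).

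Outside the naming rule, and picked after their values were seen, are 3 further lower calls of genes for SMC proteins, ring-forming ATPases that act on chromosomes: smc-5 (II, 5062129 to 5067116, left arm), smc-6 (II, 11578716 to 11582758, right arm) and mix-1, the SMC2 subunit of the worm's condensins. They form no list, and no count over such genes was made. smc-5 was at 212 and 168 normalised reads in N2 and 37.6 and 49.9 in the I158A strain (log2 fold change -2.10, SE 0.28, limma adjusted p = 0.0054). smc-6 went from 449 and 317 to 107 and 83.6 (-1.98, SE 0.29, adjusted p = 0.00696), and mix-1 from 980 and 785 to 283 and 356 (-1.46, SE 0.21, adjusted p = 0.00682). For all 3 genes the I158A libraries were the lowest of the 12, and the lin-61 libraries lay below N2 as well (87.8 and 118 for smc-5) without passing with 12 libraries.

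nrde-2, a factor of nuclear RNA interference, fell from 298 and 256 normalised reads in N2 to 115 and 160 in the I158A strain (log2 fold change -1.02, SE 0.25, limma adjusted p = 0.047), while hpl-2 stood at 342 and 384. It lies in a stretch of 34.3 kb (II, 10233833 to 10268168, right arm) with 6 passing genes. There ubxn-5 and F54B3.1, named for their place in the stretch, also fell. This stretch too was drawn around neighbouring called genes, so its share of calls follows from the choice. Other lower calls outside the naming rule included crn-3, a nuclease of RNA and DNA turnover (-1.51), stip-1, a splicing factor (-1.83), and gtf-2F1, a subunit of the general transcription factor TFIIF (-1.18). The 3 largest falls by value were those of 2 non-coding genes and a pseudogene. C09D8.10, a non-coding RNA gene, had 18.7 and 12.2 normalised reads in N2 and no read in hpl-2 I158A (at least 10.4-fold lower, limma adjusted p = 0.008). C03H5.8, also non-coding, went from 31.2 and 11 normalised reads to 2 reads over both I158A libraries (limma adjusted p = 0.0427), a ratio of about 20 with a 95% exact counting interval of 5.06 to 173.1. The pseudogene WBGene00022688 went from 131 and 40.2 to 3.85 and 5.10 (-3.76, SE 0.69, adjusted p = 0.0184), with a gap between its N2 libraries.

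The 20 arm genes that rose in hpl-2 I158A included genes of oocytes and early embryos. mex-1 (II, 11968637 to 11972334, right arm) encodes a zinc-finger protein supplied by the mother that acts in the early cell divisions. It was at 143 and 213 normalised reads in N2, at a mean of 137 ± 26.1 (SD) in hpl-2, and 423 and 450 in the I158A strain (log2 fold change 1.31, SE 0.23, limma adjusted p = 0.0159). egg-3, needed for the change from egg to embryo and named after its values were seen, went from 60.8 and 81.6 in N2 to 166 and 159 (1.19, SE 0.26, adjusted p = 0.0364). For both genes the I158A libraries were the highest of the 12. Of 3 early embryo and maternal genes on the arms, 2 rose (0.908% of all genes did), and so did 2 of 3 in the middle, with medians of 1.19 and 1.09; over the 34 such genes of the whole genome the median deviation from the mean of all libraries was 0.60 and 0.63 in the I158A strain, -0.55 and -0.09 in N2, -0.51 and -0.54 in the hpl-2 strain, and -0.09 to 0.30 in the other libraries. The part of embryo age in the I158A values was not tested. In bulk samples, a change in the number of cells of a type and a change of RNA per cell cannot be told apart.

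The other named rises in hpl-2 I158A were of low genes. fbxc-50, an F-box gene next to gcy-19, went from 10.9 and 21.9 normalised reads in N2 to 52 and 55 (log2 fold change 1.72, SE 0.39, limma adjusted p = 0.0405). Its hpl-2 libraries, at 16.2 and 17.7, lay within the N2 range, whereas gcy-19 beside it rose in hpl-2 and did not pass in I158A. ZC239.21 went from 7.79 and 4.87 to 30.8 and 27.5 (2.07, SE 0.43, limma adjusted p = 0.0303), and C27D9.1 from 12.5 and 8.53 to 39.5 and 41.8 (1.88, SE 0.41, adjusted p = 0.0337). C09H10.5 (1.49) and the pseudogene WBGene00014667 (1.58, adjusted p = 0.0136) rose as well. Among better-measured genes outside the rule, gpd-1, a glyceraldehyde-3-phosphate dehydrogenase, went from 338 and 367 to 814 and 881 (1.26, SE 0.16, adjusted p = 0.00468), and gpb-1, a G protein beta subunit, from 872 and 997 to 2166 and 2062 (1.18, adjusted p = 0.0184).

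**Figure D5:**
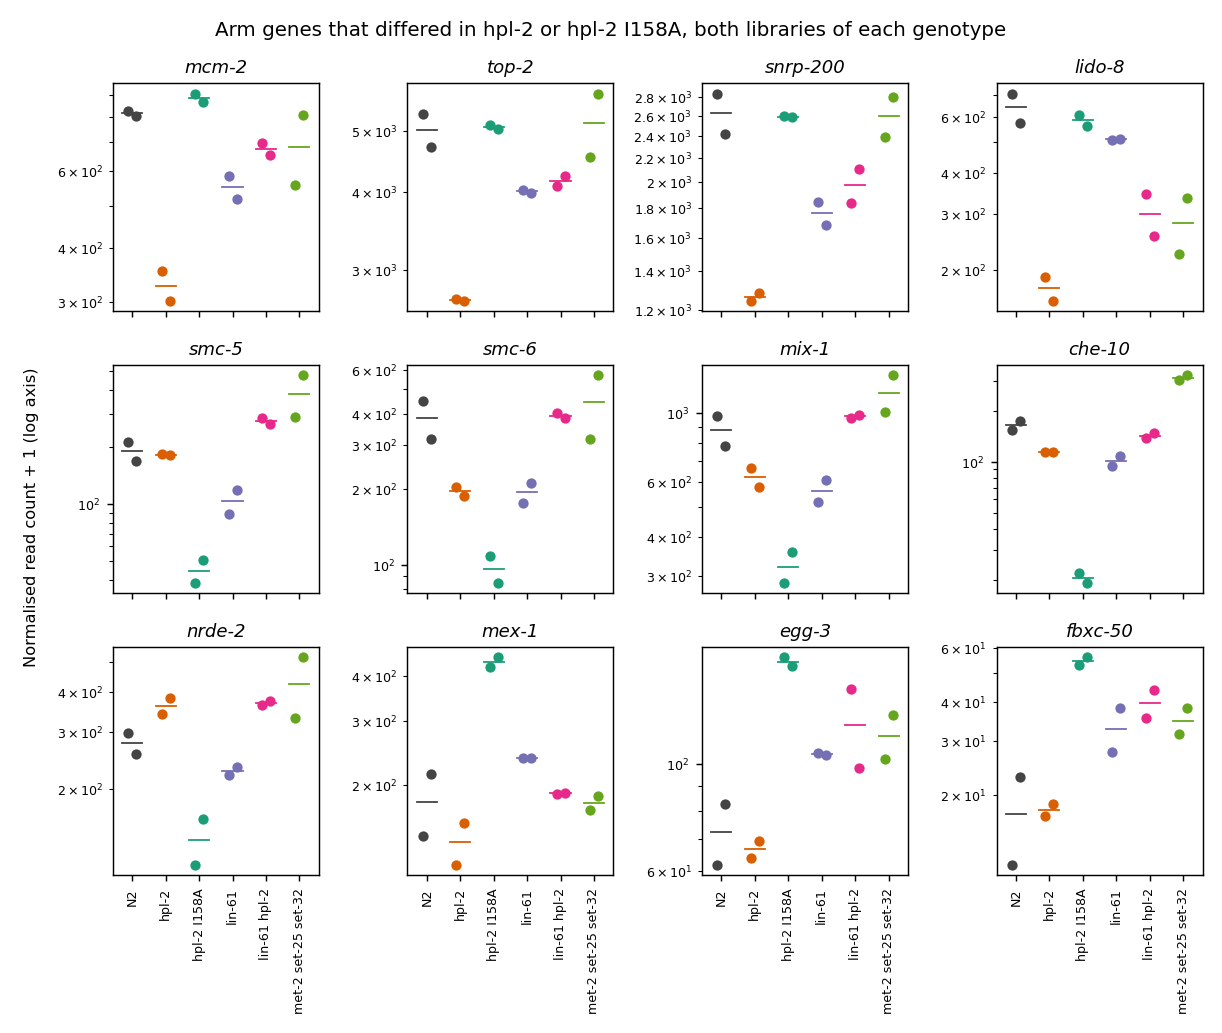
Normalised read counts plus 1 (y axis, log scale, ranges differ between panels) of 12 arm genes in both libraries of each genotype (x axis; dots are libraries, lines their means). mcm-2, top-2, snrp-200 and lido-8 are lowest in hpl-2; smc-5, smc-6, mix-1, che-10 and nrde-2 are lowest and mex-1, egg-3 and fbxc-50 highest in hpl-2 I158A.

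Set directly against each other, the 2 hpl-2 strains gave more calls than either gave against N2, in a comparison added after the data were seen. In hpl-2 I158A over hpl-2, 82 arm genes rose and 49 fell (5.28% and 3.15% of the arm genes, against 3.59% and 4.25% of all genes), and in the middle 25 rose and 62 fell. The median log2 fold change was 0.21 on the arms, -0.18 in the middle and -0.05 over all genes. The right arm had 51 higher and 16 lower calls and the left arm 31 and 33. Without triple mutant replicate 2 the counts were 316 higher and 164 lower on the arms (20.3% and 10.6%, against 14.4% and 15.5% of all genes). In the middle they were 114 and 193. Without any 1 of the 4 libraries compared, 1 arm gene was called. The genes low in hpl-2 made up part of the rises: mcm-2 (log2 fold change 1.45, limma adjusted p = 0.00934), lido-8 (1.74, adjusted p = 0.00934), lido-9 (1.58, adjusted p = 0.00714) and top-2 (0.91, adjusted p = 0.0155) each rose in I158A over hpl-2. lem-2, an inner nuclear membrane protein named after its values were seen, stood at 662 and 638.5 in N2, 363 and 318 in the hpl-2 strain and 716 and 740 in I158A; it missed the threshold in hpl-2 over N2 (adjusted p = 0.0555) and rose in I158A over hpl-2 (1.10, adjusted p = 0.0126). Among the falls were gcy-19 (-2.97, adjusted p = 0.00507), gba-1 (-3.25, adjusted p = 0.0106), fbxb-38 (-3.34, adjusted p = 0.00975) and F15D4.5 (-1.65, adjusted p = 0.00507). Apart from lem-2 and fbxb-38, the genes given here were called in hpl-2 over N2. Both comparisons use the same hpl-2 libraries, so this choice favours a value of opposite sign. The adjusted p-values of these genes are therefore no independent evidence.

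The double mutant allows a further comparison, also added after the data were seen, of the effect of the hpl-2 mutation with and without the lin-61 mutation. This interaction was called higher for 25 arm genes and lower for 10 (1.61% and 0.644% of the arm genes, against 1.07% and 0.669% of all genes), and in the middle for 2 and 7. Its median was 0.14 on the arms, -0.21 in the middle and -0.02 over all genes. Without triple mutant replicate 2 it was called for 324 arm genes (20.8%, against 20.2% of all genes), and with any library of the 4 genotypes left out the 35 calls came to between 0 and 15.

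The mitochondrial share of the reads divided the libraries in another way. It was 0.314% to 0.344% in the N2 and double mutant libraries, 0.446% and 0.104% in the hpl-2 libraries, 0.0977% to 0.109% in the I158A strain and lin-61, and 0.0807% and 1.62% in the triple mutant. With this division as a term in the fit, an alternative added after the data were seen, the arm counts were 7 in hpl-2, 25 in the I158A strain, 1 in lin-61, 18 in the double mutant and 67 in the triple mutant. Split at 0.2%, both libraries of N2 and the double mutant lay above, and both of I158A and lin-61 below. For I158A and lin-61 over N2 the division therefore cannot be told apart from genotype. Only hpl-2 and the triple mutant have a library on each side, so their libraries alone set the term, triple mutant replicate 2 among them. The part of the division in the values above was not tested further.

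Few members of the arms' gene families were called with 12 libraries. Of the 76 passing F-box genes, 0 were called in hpl-2 by limma, DESeq2 or edgeR (2 higher and 8 lower at an unadjusted limma p under 0.05). With 11 libraries 1 rose and 1 fell in hpl-2 (5.68% and 8.7% of all genes did). In hpl-2, 19 of the 76 had a log2 fold change above 0. Their median was -0.43 in hpl-2, -0.14 in the I158A strain, -0.01 in lin-61, 0.06 in the double mutant and 0.36 in the triple mutant, against -0.02 to 0.03 over all genes. Of the 32 MATH and BTB genes, 0 were called in any mutant by limma with 12 libraries; at an unadjusted p under 0.05 the most were 9 higher and 3 lower in the triple mutant, where DESeq2 called 2 and edgeR 0. With 11 libraries 1 rose and 4 fell in the I158A strain (9.17% and 12.9% of all genes did). In the double mutant 2 rose and 1 fell (2.86% and 2.15% of all genes). The 10 passing histone genes of the right arm had medians of -1.34 in hpl-2 and -1.20 in lin-61, all 10 below 0 in both, with -0.18 in the I158A strain, -0.11 in the double mutant and -0.75 in the triple mutant. Over N2, with 12 libraries, limma called 0 of them (7 lower in hpl-2 and 4 in lin-61 at an unadjusted p under 0.05), DESeq2 2 and 1, and edgeR 0. With 11 libraries 4 fell in hpl-2 and 3 in lin-61 (8.7% and 3.09% of all genes did). The interaction was called higher for 3 of the 10 with 12 libraries (1.07% of all genes), with a median of 1.52. The 58 passing histone genes of the whole genome also stood low in these strains. Their median deviation from the mean of all libraries was -0.26 and -0.44 in hpl-2, -0.24 and -0.30 in lin-61, and 0.26 and 0.17 in N2. It was 0.51 and 0.38 in the I158A strain, 0.163 and -0.025 in the double mutant, and -0.18 and -0.15 in the triple mutant. Histone genes exist in near-identical copies, as do members of the F-box and MATH families, and how reads that match several copies were counted is not given in the sources used here, so the values of single copies are uncertain. The libraries were made from poly(A) RNA, and how evenly they captured histone messages was not tested. Nuclear hormone receptors (4), hedgehog-related genes (4), ribosomal protein genes (4), detoxification genes (10), neuropeptides (3), a transthyretin-related gene (1), body wall muscle (2), neuronal (2), intestinal (1) and germline genes (2) of the arms, 33 genes in all, had no limma call in any mutant over N2 with 12 libraries. Of these 33, 16 had an unadjusted p under 0.05 in at least 1 mutant, DESeq2 called 3 and edgeR 0, and with 11 libraries limma called 15. Among the latter were both germline genes, higher in the I158A strain, and 2 of the 4 ribosomal protein genes, higher in both hpl-2 strains. None of the 6 adult and sperm genes passed the filter.

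The directional library kit marks strand, but whether the counting used it is not given in the sources used here, and reads of genes on opposite strands cannot be told apart with certainty. In 18 pairs in which a non-coding arm gene lay almost wholly opposite the exons of a coding gene, its level, as log2(normalised reads per kilobase + 1), was above that of its partner by a median of 1.69 to 4.67, depending on the library. Of the 1282 passing protein-coding arm genes, 54 have more than 10% of their exonic bases opposite another gene, and none of the 62 called ones is among them. With so few overlapping genes this says little. It does not bear on how strand was counted, which was not tested and could touch genes without such an overlap too. The gene with the highest mean level on the left arm, the non-coding F56D12.10 at 2601 and 2924 normalised reads in N2, lies wholly opposite vig-1 and is therefore uncertain; it was called in no mutant.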

How the data were processed

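Directional libraries were made from poly(A) RNA, per the labels' protocols. WBcel235 and ce11 are the builds, and STAR, featureCounts and DESeq2 the tools, in the submitters' processing notes, with no versions or options. For each library the authors deposited read counts normalised by a size factor (signal values). Each value was a whole multiple of the value of 1 read in its library, so whole reads were recovered: 100% of the values came out whole within 1e-06 reads. A second table, per the file headers, holds the authors' own p-value, adjusted p-value and log2 fold change per gene and pair of genotypes. Its directions were turned to mutant over N2 by the sign of the correlation with the log2 fold changes fitted here. Which of its counts are higher and which lower therefore rests on that fit. The value of 1 read ran from 0.2225 normalised reads (triple mutant replicate 2) to 1.558 (N2 replicate 1). Intervals and floors cover counting error only.

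The members, gene lists and naming rule were chosen with earlier results of these data known. limma-trend (limma 3.58.1, R 4.3.3) was fitted on log2(normalised count + 1) over all 14640 genes reaching 10 normalised reads in 2 or more libraries, with all 12 libraries and genotype as the only term (6 residual and 4.73 prior degrees of freedom), and p-values were adjusted by Benjamini-Hochberg over all genes. For genes with few reads, the added 1 makes these log2 fold changes too small. The interaction is the double mutant mean minus both single mutants plus N2, and it was added with the comparison of both hpl-2 strains after the data were seen. Whole reads were tested with edgeR 4.0.16 (quasi-likelihood) and DESeq2 1.42.0 as alternatives: edgeR called 7, 33, 2, 5 and 2 arm genes in the hpl-2, I158A, lin-61, double and triple mutant strains, and DESeq2 47, 79, 10, 21 and 25. Gene positions are the deposited coordinates, with 1 added to each start. Symbols, gene classes, strands and exons came from the Ensembl 115 annotation of WBcel235, where 46817 identifiers matched and 87 did not. Of the deposited starts, 36446 were identical to those of that annotation. Named genes were, per mutant, up to 6 called rises and 6 called falls of largest size whose libraries lay outside the N2 range, genes called in at least 3 mutants, the called member of each list with the smallest p in each direction, and the highest gene of each arm. Genes named outside this rule are marked where they appear. Sequences were not used here.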

Additional observations from a re-analysis of the deposited data

Results flagged for a closer look

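For 6 of the named arm genes limma called an interaction, a difference in the effect of the hpl-2 mutation between the lin-61 and the wild-type background. The value is the log2 effect with lin-61 mutated minus the effect without it, fitted with all 12 libraries. All 6 were named for a call in hpl-2 over N2, a difference that the interaction subtracts, so the choice of genes favours a value of opposite sign and their adjusted p-values are no independent evidence. The interaction was negative for F15D4.5 (-2.60, limma adjusted p = 0.00486), F26G1.5 (-2.97, adjusted p = 0.0432) and Y54G9A.9 (-4.25, adjusted p = 0.0246). These genes rose in hpl-2. F26G1.5 stood at 23.5 and 14.7 normalised reads in the double mutant, against 69.5 and 49.6 in hpl-2 and 26.6 and 24.5 in lin-61. It was positive for mcm-2 (1.62, adjusted p = 0.0272), snrp-200 (1.21, adjusted p = 0.0378) and pfs-2 (1.68, adjusted p = 0.0161), all of which fell in hpl-2. pfs-2 stood at 362 and 382 in the double mutant, against 170 and 176 in hpl-2, 231 and 236 in lin-61 and 336 and 362 in N2.

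Over all arm genes, the interaction was called higher for 25 and lower for 10 (1.73% of all genes were called), and in the middle for 2 and 7. The right arm had 21 and 7 of these calls and the left arm 4 and 3. Without triple mutant replicate 2 it was called for 324 arm genes (20.8%, against 20.2% of all genes). Leaving out a library of the 4 genotypes brought the 35 arm calls to between 0 and 15; with hpl-2 replicate 2 or lin-61 replicate 2 left out limma called 0 (206 and 215 arm genes at an unadjusted p under 0.05). N2 and the double mutant, which stand on one side of this contrast, are also the genotypes whose libraries both had over 0.2% mitochondrial reads. With that division as a term limma called 0 arm genes, with 252 at an unadjusted p under 0.05; without it, edgeR called 19 and DESeq2 77. The term was set by the hpl-2 and triple mutant libraries alone, the only genotypes with a library on each side. The part of the division in these values was not tested further.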

How the results depend on the processing

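The counts of called arm genes, given in the order hpl-2, I158A, lin-61, double and triple mutant, depended on most choices; the cause was not tested. edgeR gave 7 in hpl-2, 33 in the I158A strain, 2 in the triple mutant, and 19 for the interaction. DESeq2 gave 47, 79, 10, 21 and 25, and 77 for the interaction. With no low-value filter, where more genes are tested, hpl-2 had 5, hpl-2 I158A 23, hpl-2 I158A over hpl-2 55 and the interaction 10. TMM scaling gave 11 in hpl-2 and 2 in the triple mutant. With protein-coding genes only, hpl-2 had 42, lin-61 4, the double mutant 12, the triple mutant 2 and the interaction 66. Narrower arms (below 4 or above 12 Mb), which hold fewer genes, gave 24 in hpl-2 I158A, 85 in hpl-2 I158A over hpl-2 and 22 for the interaction. With the mitochondrial division as a term the counts were 7, 25, 1, 18 and 67, and 0 for the interaction. That term rests on the hpl-2 and triple mutant libraries alone.

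With 1 library left out, the counts ran from 2 to 255 in hpl-2, 1 to 301 in hpl-2 I158A, 1 to 98 in lin-61, 3 to 101 in the double mutant, 1 to 504 in the triple mutant, 1 to 480 in hpl-2 I158A over hpl-2 and 0 to 324 for the interaction. The upper ends come without triple mutant replicate 2, except the 504, which comes without its replicate 1. The arm minus middle median ran from -0.282 to -0.218 in hpl-2, 0.061 to 0.093 in hpl-2 I158A, -0.073 to -0.018 in lin-61, -0.048 to 0.021 in the double mutant and -0.211 to -0.068 in the triple mutant. It was -0.175 in hpl-2 and 0.0 in the I158A strain without the filter, 0.033 in hpl-2 I158A both with narrower arms and with the mitochondrial division, and -0.095 in lin-61 with that division.

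Replicate numbers did not pair the samples: same-numbered libraries of 2 genotypes had correlated deviations between -0.077 and 0.156. With the replicate block, hpl-2 had 7 calls and the interaction 15, and hpl-2 I158A 40. Of 38 calls of named genes, 8 held under all alternatives run. These were F15D4.5 in hpl-2, lin-61, the double mutant and the triple mutant, and gcy-19 in hpl-2 and the double mutant. The others were gba-1 in the double mutant and che-10 in hpl-2 I158A. Over 487 pairs of a named call and an alternative, no direction reversed. The genes were chosen as called, many with both mutant libraries outside the N2 range, so this is no independent evidence.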
